A study of Mus musculus with 2 samples.

Results

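The MYC, MAX and MXD network is a family of transcription factors that pair through a basic helix-loop-helix leucine zipper, and 10 of its mouse genes were followed here in cultured erythroblasts. The genes were Myc, Mycn, Max, Mxd1, Mxi1, Mxd3, Mxd4, Mnt, Mga and Mlx, chosen by name, and all 10 had a row among the 25791 gene rows of the deposited table. RNA was sequenced from Extensively Self Renewing Erythroblasts (ESREs), cells of the red lineage able to divide for long periods outside the body, with C57/bl6 as their genetic background. In the maturation group the cells had matured for 1 day, and in the expansion group they were proliferating. The series title speaks of cells from mice with a β-Yac transgene, which both groups would then carry, although the sample labels name only the background. The labels do not say whether the cells were 1 line or several, or whether animals were pooled.

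Each group had 1 deposited FPKM value per gene (fragments normalised for transcript length and for sequencing depth). The series text speaks of biological duplicates, but no replicate values were used here, so no difference below has an error, an n or a test. The depth is unknown. Of all rows, 9263 reached 1 FPKM in at least 1 group and are called expressed. The summed FPKM was 416690 in maturation and 411084 in expansion, of which rows of small RNAs or loci of at most 300 bases held 30.5% in maturation and 23.6% in expansion. Most of 13 erythroid markers reached 1 FPKM in both groups. Hba-a1, an adult alpha globin gene, stood at 8370 FPKM in maturation and 1951 FPKM in expansion, and Gata1 at 37.4 FPKM in maturation against 18.8 in expansion. In expansion Slc4a1 at 0.0744 FPKM and Alas2 at 0.975 FPKM did not reach 1 FPKM. By ratio 12 of the 13 were higher in maturation, where 74.1% of all expressed rows were lower, and Kit was lower. No granulocyte or lymphocyte marker with a row (10 and 9 genes) exceeded 0.0531 FPKM.

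MYC binds DNA only when paired with MAX, at the E-box CACGTG, and such pairs raise transcription of genes for growth, ribosome building and metabolism. MXD proteins and MNT compete for MAX and bring SIN3 and histone deacetylases to the same sites. MGA, also a MAX partner, belongs to a Polycomb complex, and MLX is the partner of the nutrient-sensing MONDO proteins and also of MXD1, MXD4 and MNT. In erythroid cells MYC is known to sustain division, and its decline is part of normal terminal maturation.

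Promoter sequences are shown first because the network's own genes can carry the E-box that its proteins bind. RefSeq promoter windows (build GRCm38.p6, 250 bases before to 50 bases after a start) were matched by symbol for 9 members with 11 windows, and Myc was not among them. CACGTG, which reads the same on both strands and does not overlap itself, lay in the windows of Max, Mxd4, Mnt and Mlx, or 4 of 11. Among all 32851 RefSeq windows, 7.15% held it. Of the 6674 expressed rows matched to a window, 13.1% had it. The stretch around each E-box is given 5′ to 3′ on the gene's strand, with the E-box in capitals.

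Max (chr12:76962229-76962281, minus strand): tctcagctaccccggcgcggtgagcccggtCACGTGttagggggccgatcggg
Mxd4 (chr5:34187894-34187959, minus strand): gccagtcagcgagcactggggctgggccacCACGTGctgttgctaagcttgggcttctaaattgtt
Mnt (chr11:74830771-74830836, plus strand): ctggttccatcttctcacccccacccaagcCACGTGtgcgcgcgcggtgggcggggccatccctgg
Mlx (chr11:101087220-101087285, plus strand): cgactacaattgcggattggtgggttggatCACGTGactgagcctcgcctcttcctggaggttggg

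The E-box began 3 bases before the annotated start in Max, so that it spans the start, 40 bases before it in Mlx, 123 bases before it in Mnt and 219 bases before it in Mxd4. The 250 bases upstream of the start are also given for Mxd3 and Mxd4, since these close relatives stood apart in opposite directions (values below). They span chr13:55329732-55329981 and chr5:34187711-34187960, both on the minus strand. G and C made up 73.2% of the Mxd3 stretch and 58% of the Mxd4 stretch. No CACGTG was found in the Mxd3 window, which says only that these letters are not in it.

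Mxd3: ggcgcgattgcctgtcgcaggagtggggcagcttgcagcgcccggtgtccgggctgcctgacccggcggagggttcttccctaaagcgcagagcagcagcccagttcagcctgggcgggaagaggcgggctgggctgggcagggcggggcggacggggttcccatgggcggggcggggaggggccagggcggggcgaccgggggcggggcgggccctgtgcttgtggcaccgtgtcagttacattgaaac
Mxd4: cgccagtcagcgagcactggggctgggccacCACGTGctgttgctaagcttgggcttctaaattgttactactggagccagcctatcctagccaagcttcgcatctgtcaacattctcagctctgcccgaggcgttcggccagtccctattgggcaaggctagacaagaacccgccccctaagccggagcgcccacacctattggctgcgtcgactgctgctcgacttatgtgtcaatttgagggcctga

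Across the network, Myc stood lower in maturation while its partner Max was at nearly the same level, and the genes of MAX's repressive partners moved apart from each other. Mxd3 and Mxd1 were higher in maturation, and Mnt, Mxd4 and Mxi1 were lower. Of the 10 members 2 were higher in maturation by any amount and 8 were lower, in a table where 74.1% of expressed rows were lower. Max and Mycn lay so near 0 that centring or rescaling turned them to the higher side, and the other 8 kept their direction. The log2 ratio used below is log2 of FPKM + 1 in maturation over FPKM + 1 in expansion. It understates differences of weak genes, whereas a fold is FPKM divided by FPKM with nothing added. Expressed rows had a median log2 ratio of -0.25, so a member near -0.25 was placed like most of the transcriptome.

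**Figure D1:**
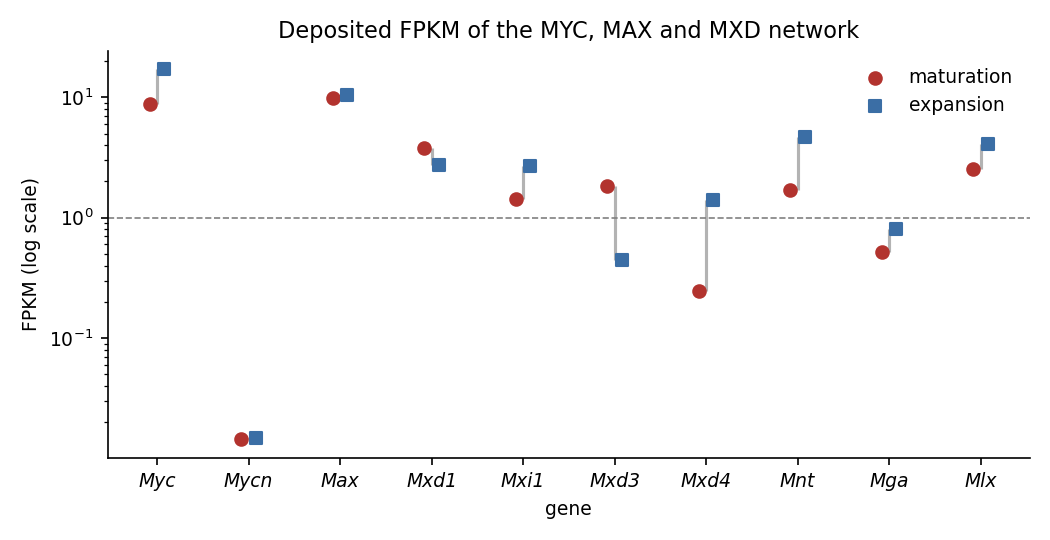
FPKM of the 10 members on a log axis, with 1 red circle for maturation and 1 blue square for expansion per gene, joined by a grey line, and a dashed line at 1 FPKM. Myc and Max stand highest in both groups, Mxd1 and Mxd3 have the circle above the square, and Mycn lies near 0.014 FPKM in both.

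Myc, the main MYC gene of blood cells, lies on chromosome 15 (61816896 to 61821916, mm9 as in all loci here unless GRCm38 is named). Myc was at 8.84 FPKM in maturation and 17.1 FPKM in expansion, 0.517-fold, with a log2 ratio of -0.88. Of the expressed rows 9.26% had a lower ratio. Myc still exceeded 73.8% of expressed rows in maturation, against 82.6% in expansion, so it remained a well expressed gene after 1 day. Relative to the median of expressed rows its log2 ratio was -0.63.

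Mycn, the neural and embryonic MYC gene on chromosome 12 (12942899 to 12948642), was at 0.0144 FPKM in maturation and 0.0147 FPKM in expansion. It did not reach the 1 FPKM limit in either group. Mycl1, the remaining MYC gene, which is outside the 10 members, was at 0.0223 FPKM in maturation against 0.0195 in expansion. Myc therefore supplied nearly all MYC-gene FPKM, as Myc and Mycn together summed to 8.86 FPKM in maturation and 17.1 FPKM in expansion.

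Max, the obligate partner of MYC and also a partner of MXD, MNT and MGA proteins, lies on chromosome 12 (78038256 to 78063235). Max was at 9.94 FPKM in maturation and 10.4 FPKM in expansion, 0.954-fold, with a log2 ratio of -0.06. Its ratio exceeded that of 69.4% of expressed rows, and relative to their median it was 0.19 higher. Max was the highest member in maturation and Myc the highest in expansion, and the level of Myc over that of Max was 0.889 in maturation and 1.64 in expansion. Without replicates this change of order has no error.

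**Figure D2:**
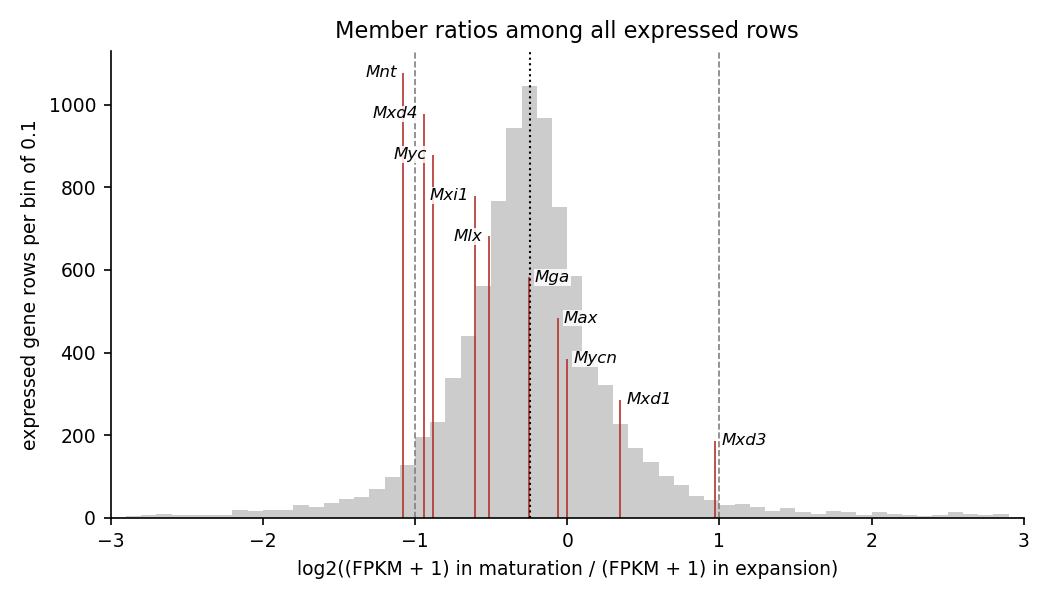
Histogram of the log2 ratio of the 9263 expressed rows in bins of 0.1 (the axis shows -3 to 3), with a red line for each member, a dotted line at the median of -0.25 and dashed lines at -1 and 1. Mnt at -1.08, Mxd4 at -0.94 and Myc at -0.88 lie in the lower tail, and Mxd3 at 0.97 lies in the upper tail; line heights only separate the names.

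The 4 MXD genes differed in direction from each other. Mxd3, which in proliferating cells is known for expression in S phase, lies on chromosome 13, in a locus shared with other rows (55423385 to 55431091). Mxd3 was at 1.84 FPKM in maturation and 0.446 FPKM in expansion, 4.13-fold, with a log2 ratio of 0.97 that exceeded 96.8% of expressed rows. Mxd1, a MYC antagonist known from differentiating myeloid cells, lies on chromosome 6 (86597038 to 86619153). Mxd1 was at 3.78 FPKM in maturation and 2.76 FPKM in expansion, 1.37-fold, with a log2 ratio of 0.35 that exceeded 89.4% of expressed rows. Mxd3 and Mxd1 were thus the pair of members above 0.

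Mxd4, a further MYC antagonist, lies on chromosome 5 (34519229 to 34530359). Mxd4 was at 0.248 FPKM in maturation and 1.39 FPKM in expansion, 0.178-fold, with a log2 ratio of -0.94, and 7.93% of expressed rows had a lower ratio. Mxi1, which in mouse erythroblasts has been linked to enucleation, lies on chromosome 19, in a locus shared with another row (53384996 to 53450300). Mxi1 was at 1.44 FPKM in maturation and 2.71 FPKM in expansion, 0.532-fold, with a log2 ratio of -0.60. The level of Mxd3 over that of Mxd4 was 7.43 in maturation and 0.320 in expansion, so the order of these relatives was opposite in the 2 groups. Both lay under 2 FPKM in each group, where single values are least certain.

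Mnt, the widely expressed MAX partner that opposes MYC in dividing cells, lies on chromosome 11 (74644426 to 74659227). Mnt was at 1.70 FPKM in maturation and 4.71 FPKM in expansion, 0.361-fold, with a log2 ratio of -1.08, and 5.59% of expressed rows had a lower ratio. Mnt was the lowest of the members by this ratio, below Myc itself. The level of Myc over that of Mnt was accordingly 5.19 in maturation and 3.63 in expansion, whereas that of Myc over Mxd1 was 2.34 in maturation and 6.21 in expansion. The balance of MYC to its antagonists thus differed by which antagonist gene was taken.

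Mga, which encodes the core of a Polycomb complex, lies on chromosome 2 (119722964 to 119795317). Mga was at 0.514 FPKM in maturation and 0.804 FPKM in expansion, 0.639-fold, and its log2 ratio of -0.25 equalled the median of expressed rows to 2 decimals. Mlx, on chromosome 11 in a locus shared with another row (100948604 to 100956715), was at 2.54 FPKM in maturation and 4.07 FPKM in expansion, 0.626-fold, with a log2 ratio of -0.52. Both genes stood lower by less than 2-fold.

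By the limits of 1 and -1 on the log2 ratio, Mnt was the 1 member lower by 2-fold or more and 0 members were higher by 2-fold or more. Over all expressed rows 6.7% were lower by 2-fold or more and 3.13% higher by 2-fold or more. Of the 10 members 8 were expressed, leaving out Mycn and Mga. Mxd3 passed through its maturation value alone and Mxd4 through its expansion value alone, so each had to differ once it passed, and the count supports nothing further. By the FPKM values themselves, with no pseudocount, Mxd3 was higher by 2-fold or more and Mnt and Mxd4 were lower by 2-fold or more. The shares over all expressed rows also grow with a smaller pseudocount. At a pseudocount of 0.1 they were 14.1% lower and 4.03% higher. Centred on the median of expressed rows, Mxd3 was past 2-fold at 1.22 and Mnt was not at -0.83, and the shares over all expressed rows became 3.92% lower and 4.53% higher.

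Summed by role, MYC genes made up 28.7% of the network's FPKM in maturation and 38.5% in expansion. Max made up 32.2% in maturation and 23.5% in expansion. The genes of the antagonists (Mxd1, Mxi1, Mxd3, Mxd4 and Mnt) made up 29.2% in maturation and 27.0% in expansion. In FPKM the antagonists summed to 9.01 in maturation and 12.0 in expansion, 0.750-fold, a smaller difference than the 0.517-fold of the MYC genes. MYC genes over antagonist genes gave 0.983 in maturation and 1.43 in expansion.

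Without Mnt, the sum of the 4 MXD genes as deposited was the same in both groups to 3 digits, at 7.31 FPKM, while its parts differed. This equality depends on the scaling, as factors of 1.08 or 1.16 on maturation would put the maturation sum higher. As shares of the antagonist sum, Mxd1 held 42.0% in maturation and 22.9% in expansion, and Mxd3 held 20.4% in maturation and 3.71% in expansion. Mnt held 18.9% in maturation and 39.2% in expansion, Mxi1 16.0% in maturation and 22.6% in expansion, and Mxd4 2.75% in maturation and 11.6% in expansion. The leading antagonist gene was Mxd1 in maturation and Mnt in expansion. These shares come from the same 2 columns and, unlike the sum, do not depend on how the columns are scaled to each other.

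**Figure D3:**
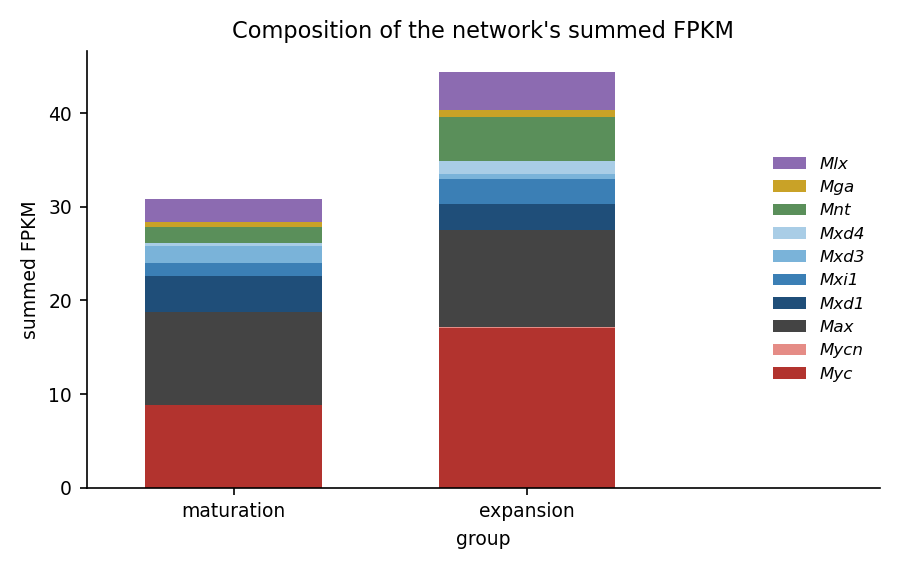
Stacked bars of the summed FPKM of the 10 members in maturation (left) and expansion (right), with 1 colour per gene. The whole bar is 30.9 FPKM in maturation and 44.4 FPKM in expansion, the Myc segment is shorter than the Max segment in maturation and taller in expansion, and the Mnt and Mxd4 segments are thinner in maturation than in expansion.

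In 3 members the table gives the same locus to other genes, so reads near shared ends may have been divided. Mxd3 shares its locus with Prelid1 and LOC100504723. Prelid1 was at 25.9 FPKM in maturation and 34.2 FPKM in expansion, and LOC100504723 at 6.55 FPKM in maturation against 9.76 in expansion, both lower where Mxd3 was higher. In GENCODE on GRCm38 Mxd3 and Prelid1 lie on opposite strands and overlap by 105 bases. Mlx shares its locus with Psmc3ip, which was higher in maturation at 5.08 FPKM, against 2.68 FPKM in expansion, with 385 bases of overlap on opposite strands. Mxi1 shares its locus with LOC100503532, which was at 0.0333 FPKM in maturation against 0.0350 in expansion. The sources used here do not say whether counting used strand, so reads in these overlaps cannot be told apart.

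The partner of MLX was weakly expressed. Mlxip, which encodes MONDOA, was at 0.673 FPKM in maturation and 1.59 FPKM in expansion, and Mlxipl, which encodes the glucose-responsive factor ChREBP, was at 0.00594 FPKM in maturation against 0.0144 in expansion. Of 10 expressed genes listed as targets of this branch, 1 was higher by 2-fold or more and 2 were lower by 2-fold or more, with a median log2 ratio of -0.29. Shares over all expressed rows were 3.13% higher and 6.7% lower. Txnip, an inhibitor of glucose uptake and a well known MONDOA target, was at 2.62 FPKM in maturation and 9.73 FPKM in expansion. Pklr, the red cell and liver pyruvate kinase gene, was at 38.2 FPKM in maturation against 8.79 in expansion. Its direction was opposite to that of Txnip and of Ldha, which was at 38.1 FPKM in maturation against 105.5 in expansion.

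Cofactor genes differed little beyond the general shift. Past 2-fold were 3.13% of all expressed rows on the higher side and 6.7% on the lower side. Of 20 expressed MYC cofactor genes 0 were past 2-fold in either direction and the median was -0.24. Ruvbl1 and Ruvbl2, ATPases of the TIP60 complex, were the lowest at log2 ratios of -0.89 and -0.75. Hcfc1 stood higher at 11.4 FPKM in maturation and 8.84 FPKM in expansion, and so did the acetyltransferase gene Kat2b at 2.26 FPKM in maturation against 1.23 in expansion. The 18 SIN3 and NCOR corepressor genes had 0 past 2-fold and a median of -0.25, with Sap30, a SIN3 subunit, lowest at 1.70 FPKM in maturation and 4.17 FPKM in expansion. The 13 genes of the MGA complex had 0 past 2-fold and a median of -0.21, with the ubiquitin ligase gene Rnf2 at 1.42 FPKM in maturation against 2.96 in expansion and E2f6 at 8.44 FPKM in maturation against 7.31 in expansion.

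Genes acting on MYC protein stability were mixed, with 2 of 25 expressed higher by 2-fold or more, 0 lower by 2-fold or more and a median of -0.23. Shares over all expressed rows were 3.13% higher and 6.7% lower. Pim1, a kinase gene downstream of erythropoietin signalling, was at 24.6 FPKM in maturation and 10.04 FPKM in expansion. Aurka, a mitotic kinase gene, was at 12.3 FPKM in maturation against 4.94 in expansion. Fbxw7, whose product marks MYC for degradation, was at 1.62 FPKM in maturation and 0.858 FPKM in expansion, and Usp36, a deubiquitinase gene, was at 1.42 FPKM in maturation against 3.42 in expansion. Genes for proteins known to stabilise MYC thus stood on both sides.

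Among 23 expressed genes listed as acting upstream of Myc, 9 were lower by 2-fold or more, 0 higher by 2-fold or more and the median was -0.61. After centring 6 were lower and 1 was higher. All expressed rows had 6.7% lower and 3.13% higher by 2-fold or more, and 3.92% and 4.53% after centring. Kit, the stem cell factor receptor, was at 1.40 FPKM in maturation and 16.8 FPKM in expansion. Myb, a progenitor transcription factor, was at 1.17 FPKM in maturation against 13.2 in expansion, and Zfp36l2, an mRNA decay factor, at 6.54 FPKM in maturation against 64.1 in expansion. Pvt1, the long non-coding gene next to Myc, was at 1.56 FPKM in maturation and 2.92 FPKM in expansion, 0.535-fold, close to the 0.517-fold of Myc. Gata1 and Epor, the erythropoietin receptor gene, stood higher, with Epor at 13.9 FPKM in maturation against 9.12 in expansion.

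Genes listed as activated by MYC fell into groups with different values. Of 38 expressed ribosome and nucleolus genes 35 had a log2 ratio below 0, where 74.1% of all expressed rows did. Of the 38, 31 lay below the median of expressed rows. Their median was -0.57, although 1 was lower by 2-fold or more and 0 higher by 2-fold or more. Among all expressed rows 6.7% were lower and 3.13% higher by that much. The lower gene of the list was Rrp9, a U3 snoRNP component, at 3.31 FPKM in maturation and 7.85 FPKM in expansion. Ddx21, a nucleolar helicase gene, was at 15.6 FPKM in maturation against 30.3 in expansion, Mybbp1a at 12.9 FPKM in maturation against 24.9 in expansion, and Npm1, which encodes nucleophosmin, at 111.1 FPKM in maturation against 204.9 in expansion. Npm1, like Ldha and Eno1 named elsewhere here, has processed pseudogenes that can share its reads. Ubtf, a factor of ribosomal RNA transcription, was the highest by ratio, at 9.57 FPKM in maturation against 8.59 in expansion. Ribosome biogenesis genes were already known to be lower in these data when the list was drawn up, so it is not independent of that result.

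Of 41 expressed metabolic and mitochondrial targets 6 were lower by 2-fold or more, 0 higher by 2-fold or more and the median was -0.52, and after centring 3 were lower. The shares over all expressed rows were 6.7% lower and 3.13% higher, and 3.92% lower after centring. Pkm2, the row of the muscle-type pyruvate kinase gene, was at 6.01 FPKM in maturation and 35.1 FPKM in expansion, and Eno1, which encodes enolase, was at 20.96 FPKM in maturation against 57.1 in expansion. Srm, which encodes spermidine synthase, was at 17.9 FPKM in maturation against 36.2 in expansion. Odc1, which encodes the enzyme before it in polyamine synthesis and is a classic MYC target, was higher, at 57.0 FPKM in maturation and 35.4 FPKM in expansion. Mthfd2, a mitochondrial folate enzyme gene, was also higher, at 25.96 FPKM in maturation against 16.6 in expansion. Within 1 pathway, then, MYC target genes stood on opposite sides.

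The translation and cell cycle targets had 3 of 33 expressed genes higher by 2-fold or more, 1 lower by 2-fold or more and a median of 0.13, and after centring 7 were higher and 0 lower. The 3 higher genes were Ccne1, which encodes cyclin E1, at 12.2 FPKM in maturation and 2.60 FPKM in expansion, E2f2 at 11.96 FPKM in maturation against 3.04 in expansion, and E2f1 at 9.18 FPKM in maturation against 4.01 in expansion. Ccnd2, which encodes cyclin D2, was the lower gene, at 3.97 FPKM in maturation against 10.7 in expansion. Apex1, a DNA repair endonuclease gene, was at 11.4 FPKM in maturation and 22.1 FPKM in expansion. For comparison all 12 proliferation genes had a log2 ratio above 0, whereas 74.1% of all expressed rows lay below 0. The proliferation genes had a median of 0.80, with 4 higher by 2-fold or more and 8 after centring. For both lists the shares over all expressed rows were 3.13% higher and 6.7% lower by 2-fold or more, and 4.53% and 3.92% after centring. Mki67 was at 57.3 FPKM in maturation against 23.0 in expansion, so a lower Myc level stood beside higher values of S phase and mitosis genes.

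Genes listed as repressed by MYC did not stand higher as a group. Of 15 expressed, 1 was higher by 2-fold or more and 0 lower by 2-fold or more, and after centring 2 were higher. The shares over all expressed rows were 3.13% and 6.7%, and 4.53% higher after centring. The list's median was -0.36 and 9 of 15 lay below the median of expressed rows. Above 0 lay 6 of 15, where 74.1% of all expressed rows lay below 0. Cdkn2c, which encodes the CDK inhibitor p18, was the gene higher by 2-fold or more, at 4.11 FPKM in maturation and 1.47 FPKM in expansion. Also higher were the microRNA row Mir29a, at 5.15 FPKM in maturation against 2.23 in expansion, and Gadd45g, at 1.92 FPKM in maturation against 1.22 in expansion. Cdkn1a, which encodes p21, was at 15.0 FPKM in maturation against 18.9 in expansion, Cdkn1b at 1.26 FPKM in maturation against 2.05 in expansion, and Cdkn2b at 0.385 FPKM in maturation against 1.61 in expansion. Ccng2, a cyclin gene linked to arrest, was at 0.0488 FPKM in maturation and 1.04 FPKM in expansion.

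**Figure D4:**
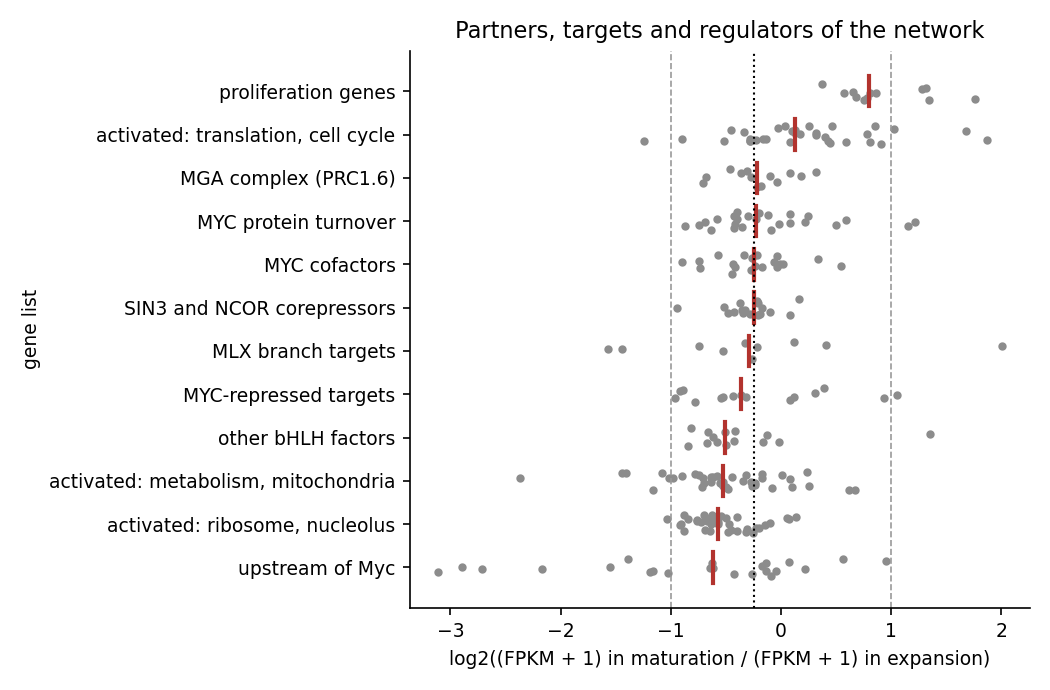
The log2 ratio of each expressed gene (grey points, spread vertically for sight) by gene list, with a red bar at each list's median, a dotted line at the median of all expressed rows (-0.25) and dashed lines at -1 and 1. Lists with at least 3 expressed genes are drawn, and their medians run from -0.61 for genes upstream of Myc to 0.80 for proliferation genes, with the ribosome and metabolism targets below the dotted line and cofactors on it.

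Most expressed markers of mast cells and megakaryocytes were lower in maturation, but not all. Of the 4 expressed mast cell and basophil markers all 4 were lower by 2-fold or more, and the summed FPKM of the 10 listed was 3.46 in maturation and 24.8 in expansion. Among megakaryocyte and platelet markers 5 were expressed and 4 of these lower by 2-fold or more, with summed FPKM of 4.24 in maturation and 24.2 in expansion. Over all expressed rows 6.7% were lower by 2-fold or more. Ms4a2, Fcer1a, Hdc, Itga2b, Itgb3, Gp1ba and Gp5 reached 1 FPKM in expansion alone, and Gp9 in maturation alone. Each of these had to differ in that direction once it passed, so the counts support nothing further. Il1rl1 reached 1 FPKM in both groups, at 1.64 FPKM in maturation against 8.92 in expansion. Gp5 was at 0.438 FPKM in maturation against 9.63 in expansion, Gp1ba at 0.845 against 7.22, and Ms4a2 at 0.0903 against 7.07. The mast cell gene Mcpt8 was listed at 0 in both groups, and Cpa3 and the platelet gene Pf4 at 0 in maturation and at 0.107 and 0.0333 FPKM in expansion. Some markers stood the other way, as Gp9, a platelet glycoprotein gene, was at 1.84 FPKM in maturation against 0.756 in expansion, and the mast cell protease gene Mcpt4 at 0.715 FPKM in maturation against 0.00971 in expansion. Of the 9 macrophage markers with a row, 1 was expressed, Cd68 at 0.539 FPKM in maturation against 1.18 in expansion. The part of such transcripts in the values of Myc, Mnt and the genes upstream of Myc was not tested, and in bulk RNA fewer cells of a type and less RNA per cell cannot be told apart.

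Rows placed most like a member were found by distance between log2(FPKM + 1) values over the 2 groups, a weak measure with 2 values. For Mnt, the expressed member with the lowest ratio, they were B3gnt2, Pex5 and Nat9, at distances of 0.020 to 0.023, among 24 rows within 0.1. Pex5, for example, was at 1.66 FPKM in maturation and 4.71 FPKM in expansion. For Mxd3, the member with the highest ratio, they were LOC100504489, Acyp2 and Apol10a, at distances of 0.0065 to 0.12, and 2 rows lay within 0.1.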

How the data were processed

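Per the labels' protocols, a Qiagen kit was used for RNA and a Nextflex kit for libraries. The authors deposited FPKM, with 1 column per group and 1 value per gene in each, as the file headers show. The submitters' processing notes name Cuffdiff 2.0.2 and build mm9. The aligner, annotation, strand setting and treatment of the duplicates are not stated in those sources. Each column was taken as the authors' value for its group.

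Levels, folds and log2 ratios (pseudocount 1) were computed in Python 3.11.15 with pandas 2.3.3 and NumPy 2.4.6, and the ratio step was tested on simulated data. Rows with at least 1 FPKM in a group counted as expressed. A difference of 2-fold or more means a log2 ratio past 1 or -1, a size and not a test. Locus starts are given counted from 1.

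Symbols of 13 gene lists and 7 marker lists were looked up as written (362 matches) or through RefSeq synonyms (7), and 2 had no row. Members inside a list were left out of it. The members and lists were chosen with earlier results of these data known. By the rule, named genes are all members, the 3 highest and 3 lowest ratios of a list in part, and the nearest rows. Npm1, Srm, Fbxw7, Pvt1, Mki67, Cdkn1a, Cdkn1b, Hba-a1, Mycl1, Mlxipl, Mcpt4, Mcpt8, Cpa3, Pf4 and the overlapping rows were chosen after their values were seen, and so were Mxd3 and Mxd4 for the display of upstream sequence.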

Additional observations from a re-analysis of the deposited data

How the results depend on the processing

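No member changed sign while past 2-fold in any setting, and of 50 recomputed member ratios 36 kept their sign and their side of 2-fold. Max and Mycn, both near 0, changed sign in the centred and both rescaled settings. Members higher by 2-fold or more numbered 0 as deposited and 1 (Mxd3) with a pseudocount of 0.1, when centred, and when rescaled to equal sums outside small RNA rows or to equal upper quartiles. Members lower by 2-fold or more numbered 1 as deposited, 2 (Mnt and Mxd4) with a pseudocount of 0.1, and 0 with a pseudocount of 5, when centred, when rescaled to equal upper quartiles and with a minimum of 5 FPKM. Myc ran from -0.94 to -0.63 over the pseudocounts and scalings, and Mnt from -1.42 to -0.54. Medians of the MYC target lists kept their sign in all settings run, from -0.64 to -0.32 for ribosome and nucleolus, from -0.57 to -0.28 for metabolism, from 0.11 to 0.38 for translation and cell cycle, and from -0.39 to -0.014 for repressed targets. Centring turned 3 other list medians to just above 0, at 0.0032 for MYC cofactors, 0.020 for MYC protein turnover and 0.034 for the MGA complex. Beyond the MYC target medians given above, 242 list medians and counts were recomputed. Counted together with the 50 member ratios, 39 moved, of which 6 were the sign changes of Max and Mycn. The fold of summed MYC genes was 0.517 as deposited and 0.561 after rescaling to equal sums. With Mga among the antagonists the MYC to antagonist ratio was 0.696-fold in maturation over expansion, against 0.690-fold. The scaling factors on maturation were 1.08 and 1.16. No paired analysis was possible because each group had 1 deposited value per gene. Depth is unknown, so values under about 1 FPKM have no stated precision.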

Other observations

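Of 14 expressed genes for other factors that bind E-boxes 13 had a log2 ratio below 0, where 74.1% of all expressed rows did, and 10 lay below the median of expressed rows. All expressed rows had 6.7% lower and 3.13% higher by 2-fold or more. These 14 genes had 0 lower and 1 higher by 2-fold or more, with a median of -0.50. The exception was Tal1, a master factor of blood formation, at 21.1 FPKM in maturation and 7.67 FPKM in expansion. Bhlhe40 was at 1.67 FPKM in maturation against 3.72 in expansion, Hif1a, the oxygen-sensing factor, at 1.12 FPKM in maturation against 2.80 in expansion, and Tcfap4, the row of the MYC-induced factor AP4, at 0.870 FPKM in maturation against 1.98 in expansion. Usf2, a ubiquitous E-box factor, was at 5.78 FPKM in maturation against 6.41 in expansion.

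CACGTG lay in a RefSeq promoter window of 9 of 34 matched ribosome and nucleolus targets (26.5%), 8 of 38 metabolic targets (21.1%) and 10 of 30 translation and cell cycle targets (33.3%). These shares are over expressed genes, and among the 6674 expressed rows matched to a window 13.1% had it. The lists were drawn up as MYC targets, so their shares of the site MYC binds are not independent of that choice. Of all 27025 genes with RefSeq promoter windows, 8.09% had such a window. Genes with and without CACGTG had median log2 ratios of -0.61 and -0.49 in the ribosome list, -0.39 and -0.53 in the metabolic list, and -0.19 and 0.36 in the translation and cell cycle list. The direction of that difference was thus not shared by the 3 lists. The matched share was 89.5%, 92.7% and 90.9% of their expressed genes, whereas over all expressed rows it was 72.1%, too low for such a comparison across the transcriptome.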
